A study of Mus musculus with 18 samples.

Results

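H3K27ac regions without an overlapping H3K4me1, PolII_S5P or MBD3 peak made up 20.7% of the acetylated regions under 5000 bp that were called in at least 2 of 3 mouse cortices, and they were narrow, near the middle of their lists in strength, and they had TDG peaks less often than regions with such a peak in each animal, in lists where TDG was rare throughout. Acetylation of histone H3 at lysine 27 (H3K27ac) is deposited by the acetyltransferases p300 and CBP at active promoters and enhancers. Enhancers usually also carry H3K4me1, and promoters carry RNA polymerase II phosphorylated at serine 5 of its C-terminal repeat (PolII_S5P), the form found early in transcription. MBD3 belongs to the NuRD complex, which remodels nucleosomes and removes acetyl groups from histones, and TDG is a DNA glycosylase that takes part in the removal of oxidized methylcytosine.

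The lists of called peaks came from ChIP-seq of frozen cerebral cortex of 3 wild-type C57BL/6J female mice aged 14 weeks, called animals 5, 7 and 9. Each animal gave 1 library per antibody, so 15 peak lists were read, while the 3 input samples were not analysed here. Tissue and not sorted cells was profiled, so peaks come from a mixture of cell types, and fewer cells carrying a mark cannot be told apart from less of the mark per cell. On chromosomes 1 to 19 the lists of animals 5, 7 and 9 held 66055, 67877 and 57846 peaks for H3K27ac and 33744, 45575 and 22555 for H3K4me1. They held 4351, 19509 and 12526 for PolII_S5P, 56738, 61187 and 38821 for MBD3, and 125, 240 and 934 for TDG. Animal 7 had the longest list for H3K27ac, H3K4me1, PolII_S5P and MBD3, and read depth is unknown. Gene names, marker genes and sequence were not used here, since the files are on mm39 and the tables at hand are on another build.

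The regions were chosen by the peak calls themselves. H3K27ac peaks of the 3 animals that shared at least 1 bp were merged into 83349 regions on chromosomes 1 to 19. Of these, 51119 were under 5000 bp and had H3K27ac peaks from at least 2 libraries. H3K27ac-only regions were the 10589 of them (20.7%) that no H3K4me1, PolII_S5P or MBD3 peak of any animal overlapped by 1 bp or more. The other 40530, called accompanied regions below, had at least 1 such peak. They comprised 10499 regions with MBD3 and neither of the others, 19140 with H3K4me1 and no PolII_S5P, and 10891 with PolII_S5P. Width, H3K27ac strength and the absence of the other peaks come from the lists that chose the regions, so they are described without a test.

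The limits of the rule cut through a continuum. The widest H3K27ac-only regions inside the limit measured 4899, 4678 and 4587 bp, and the first ones outside it 5052, 5062 and 5289 bp. Only 13 of 1453 regions of 5000 bp or more lacked the other peaks. Among regions with H3K27ac in a single library, 17561 of 30777 (57.1%) lacked them, with a median width of 340 bp. A further 6103 accompanied regions (15.1% of them) were kept out by 1 list of the 9 alone. In 2103 of these that list was H3K4me1 of animal 7, and in 1207 it was MBD3 of animal 7, the longest lists of their antibodies. These 6103 regions had a median width of 748 bp, between the H3K27ac-only regions and the accompanied ones as a whole.

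H3K27ac-only regions were narrow. Their median width was 636 bp, with 460 and 937 bp at the 25th and 75th percentiles and 335 and 1743 bp at the 5th and 95th. The medians were 998 bp for regions with MBD3 alone, 1162 bp with H3K4me1 and no PolII_S5P, and 1455 bp with PolII_S5P. Together H3K27ac-only regions covered 8.29 Mb, against 59.1 Mb for accompanied regions. Across all eligible regions the share without any other peak was 41.7% in the narrowest of 5 equal width classes and 3.46% in the widest. The rule drops a region on any overlap of 1 bp, for which a wider region has more room. The part of this in the widths was not tested.

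**Figure D1:**
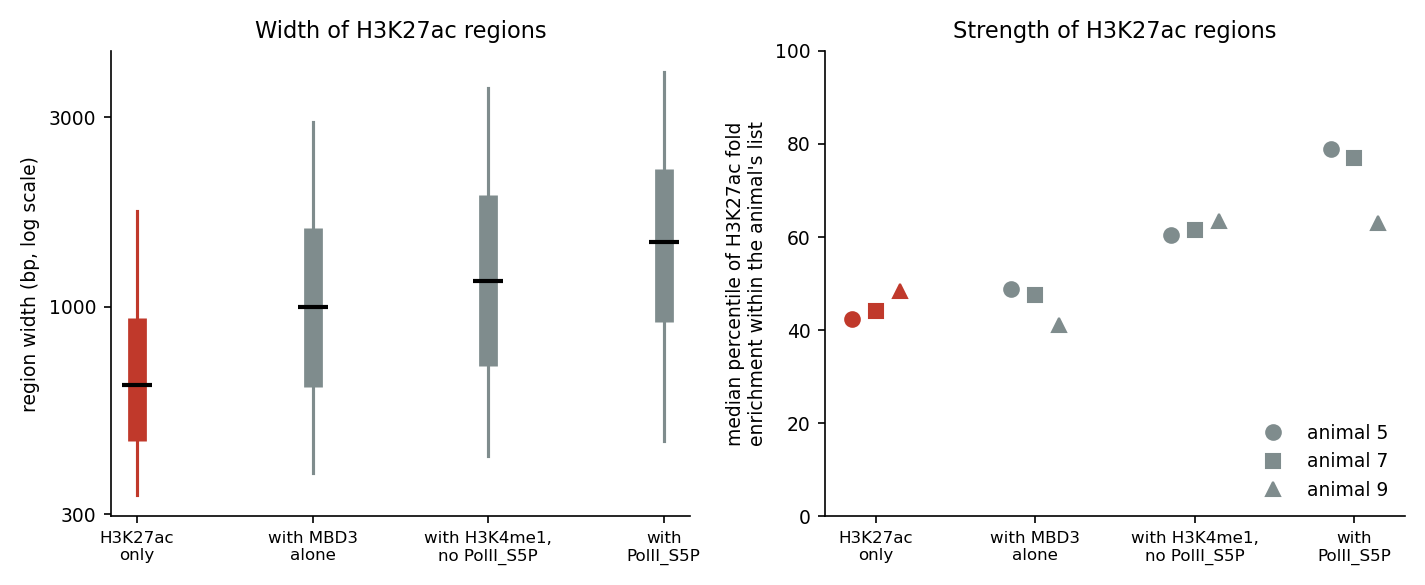
Left, width of H3K27ac regions in bp on a log scale by class (black bar median, box 25th to 75th percentile, line 5th to 95th), with medians of 636 bp for H3K27ac-only regions and 1455 bp for regions with PolII_S5P. Right, median percentile of H3K27ac fold enrichment within each animal's list, which lay between 42.5 and 48.5 for H3K27ac-only regions and between 62.9 and 79.0 for regions with PolII_S5P. Regions without a peak in an animal are left out of its median.

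The acetylation signal itself was close to the middle of each list. Fold enrichment is the authors' ratio of signal to local background at a peak, and classes were compared by its rank within a list, using the strongest peak of a region. The median percentile was 42.5, 44.1 and 48.5 in animals 5, 7 and 9 for H3K27ac-only regions, against 63.0, 61.6 and 58.6 for accompanied regions. Regions without a peak in the animal were left out of its values. This kept 8758, 9469 and 7532 H3K27ac-only and 38398, 38849 and 33999 accompanied regions. Regions with MBD3 alone stood at 48.9, 47.6 and 41.1, so the order of these classes was reversed in animal 9 relative to the others. The median fold enrichments of H3K27ac-only regions were 3.41, 3.54 and 3.66, and 137, 263 and 300 of them ranked above the 90th percentile. Accompanied regions reached that rank in 14.4%, 14.2% and 13.1% of cases, against 1.56%, 2.78% and 3.98% of H3K27ac-only regions. The −log10 q-value, which also depends on how many reads support a peak, had medians of 5.31, 5.53 and 5.04 in H3K27ac-only regions and 9.20, 9.13 and 7.24 in regions with MBD3 alone. A −log10 q-value under 2, close to the calling threshold, was found at 4.82%, 4.64% and 3.74% of the H3K27ac-only regions with a peak in that animal, against 1.82%, 1.70% and 2.03% of accompanied regions. Regions with MBD3 alone had 2.17%, 1.94% and 3.12%.

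Across all eligible regions, stronger H3K27ac went with fewer regions that lacked other peaks. In 5 equal classes of the mean H3K27ac percentile, the share of regions without another peak was 31.0% in the weakest and 7.55% in the strongest. Between the outer classes the share differed more by width than by strength.

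**Figure D2:**
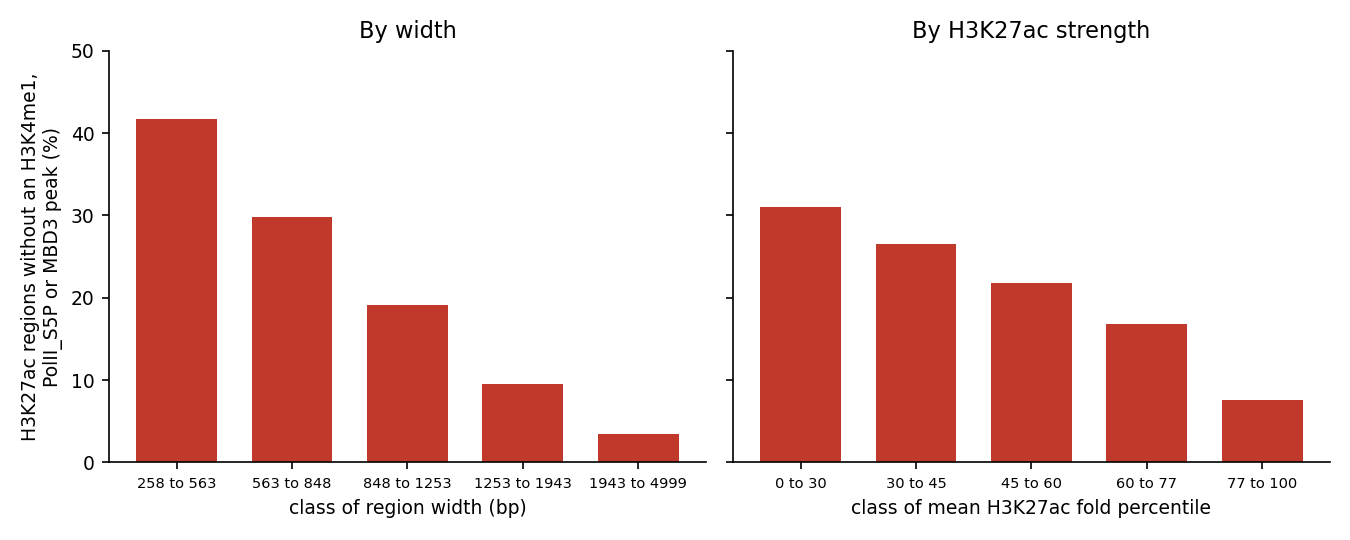
Bars give the percent of eligible H3K27ac regions with no H3K4me1, PolII_S5P or MBD3 peak in 5 classes of equal number, by region width in bp (left) and by mean within-list percentile of H3K27ac fold enrichment (right). The share is 41.7% in the narrowest and 3.46% in the widest class, and 31.0% in the weakest and 7.55% in the strongest.

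Most H3K27ac-only regions lacked a peak in 1 of the animals. Peaks from all 3 libraries were present at 4581 (43.3%), against 74.5% of accompanied regions, and 6008 had peaks from 2. The missing library among these 6008 was that of animal 9 in 3057 regions (50.9%), of animal 5 in 1831 and of animal 7 in 1120. Animal 9 had the shortest H3K27ac list. Regions seen in 3 libraries were wider, with a median of 834 bp against 547 bp for those seen in 2. They were also stronger, at median percentiles of 51.1, 54.5 and 55.0, against 33.3, 34.9 and 41.1 for those seen in 2.

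The summits of the 3 animals within the 4581 regions were about as far apart in bp as in accompanied regions, and farther apart relative to width. The distance between the outermost of the 3 summits had a median of 185 bp, against 162 bp in accompanied regions with all 3 libraries, and it was 200 bp or less in 52.3% and 53.8% of them. As a share of region width the median spread was 24.8%, against 14.4% in accompanied regions. Fold enrichment ranked the 4581 regions similarly in different animals, with Spearman's rho across regions of 0.563, 0.522 and 0.572 for animals 5 and 7, 5 and 9, and 7 and 9. In accompanied regions rho was 0.692, 0.534 and 0.622. These are descriptions across regions called in the same libraries. Most H3K27ac-only regions held a single peak per animal, with several peaks in 3.31%, 3.78% and 4.93% of those with a peak in animals 5, 7 and 9, against 8.71%, 10.3% and 17.1% of accompanied regions.

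The strongest H3K27ac-only region lay on chromosome 8, 55409242 to 55409659 (mm39), and was only 418 bp wide. Its fold enrichments of 15.5, 16.5 and 15.3 in animals 5, 7 and 9 put it at percentiles 99.8, 99.8 and 99.8 of the lists. An MBD3 peak lay 831 bp away and a PolII_S5P peak 926 bp away, while the nearest H3K4me1 peak was 14957 bp away. The next, on chromosome 3, 75595081 to 75595636, had folds of 13.9, 13.7 and 9.26, an H3K4me1 peak at 680 bp and no PolII_S5P peak within 129798 bp. On chromosome 9, 113299272 to 113300644, the folds were 10.5, 12.9 and 11.4, and MBD3 lay 197 bp away. A region on chromosome 1, 128003951 to 128005241, had 11.5, 10.9 and 11.2, with H3K4me1 at 879 bp. The last of the 5 strongest, on chromosome 18, 42351519 to 42352527, had 9.98, 12.1 and 14.2 and lay 6698 bp from the nearest other peak. Thus 4 of the 5 had another peak within 1 kb, though outside the region.

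The widest region was on chromosome 9, 113264013 to 113268911, on the same chromosome as one of the strongest just named. It had folds of 6.07, 7.95 and 5.60 and an MBD3 peak at 979 bp. The region on chromosome 4, 141915034 to 141919711, had folds of 4.59, 4.76 and 4.29 and no other peak within 27371 bp. That on chromosome 7, 119329079 to 119333665, had folds of 2.45, 5.04 and 3.66, at percentiles of 10.6, 76.0 and 48.5, so its rank differed widely between animals.

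Whether the absence of other peaks holds in an animal that took no part in the choice was asked by leaving each animal out in turn. Regions were chosen by the same rule from the other 2 animals, with H3K27ac required in both, and read in the held-out one. This gave 8233, 8926 and 8575 H3K27ac-only regions with animals 5, 7 and 9 held out. An H3K4me1, PolII_S5P or MBD3 peak of the held-out animal was present at 15.9%, 30.2% and 6.92% of them, against 84.1%, 92.2% and 70.8% of accompanied regions. Over all regions of both kinds the shares were 70.3%, 78.1% and 58.7%. The shares did not overlap between the 2 kinds, and the mean difference was -64.7 ± 3.15 percentage points (SD, n = 3, lower in 3 of 3 animals, two-sided exact permutation p = 0.1, the smallest that 3 against 3 allows, adjusted p = 0.25 over 5 tests). The 3 values are not fully independent, since each animal also helped to choose the regions read in the others. The 2 kinds were also set apart by peaks of the same antibodies in the other 2 animals. Any repeat of peak calls between animals gives this direction, so the p-value shows nothing beyond such repeat.

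The peaks that appeared at H3K27ac-only regions in the held-out animal were MBD3 or H3K4me1 and rarely PolII_S5P. MBD3 was found at 8.37%, 12.5% and 1.69% and H3K4me1 at 8.53%, 20.0% and 4.80%, while PolII_S5P was at 0.109%, 2.26% and 0.688%. In accompanied regions the MBD3 shares were 71.8%, 78.6% and 55.6%, those of H3K4me1 36.1%, 45.6% and 24.3%, and those of PolII_S5P 6.32%, 28.1% and 18.1%. All of these were highest in animal 7, which had the longest lists of these antibodies. With lists of equal length, any of these peaks was present at a mean of 16.0% of H3K27ac-only and 79.5% of accompanied regions. The part of list length in the shares of single antibodies was not tested.

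H3K27ac itself was found again at 75.7%, 84.2% and 62.5% of H3K27ac-only regions in held-out animals 5, 7 and 9, against 93.9%, 95.4% and 82.6% of accompanied regions. The share over all regions was 90.2%, 92.8% and 78.8%. The mean difference was -16.5 ± 4.67 percentage points (SD, n = 3, lower in 3 of 3 animals, two-sided exact permutation p = 0.2, adjusted p = 0.333). The groups overlapped, since animal 7 with H3K27ac-only regions exceeded animal 9 with accompanied ones. Within 5 width classes, a comparison added once the data had been seen, H3K27ac-only regions averaged 74.1% and accompanied ones 82.5%, and the difference was -8.39 points (exact permutation p = 0.5). The difference in other peaks was -56.7 points when compared in that way (exact permutation p = 0.1).

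**Figure D3:**
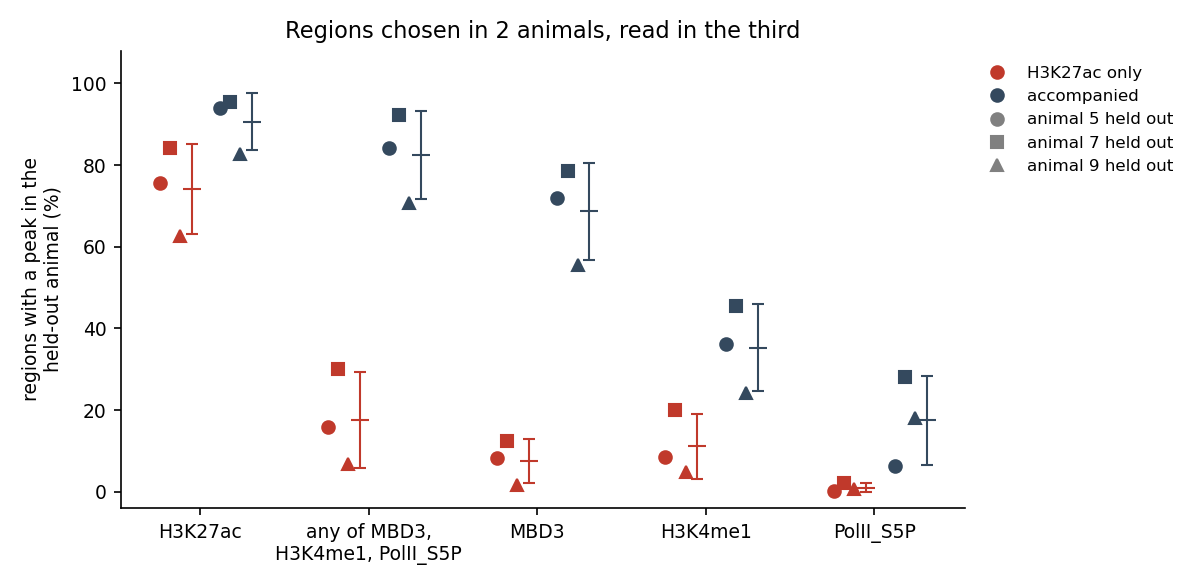
Percent of regions chosen in 2 animals that have a peak in the held-out animal, for H3K27ac, for any of the 3 other antibodies and for each of them, in H3K27ac-only (red) and accompanied (dark) regions. Symbols are held-out animals and bars give mean ± SD (n = 3). H3K27ac-only regions have another peak in 6.92 to 30.2% of cases, below all 3 values of accompanied regions, 70.8 to 92.2%.

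Most H3K27ac-only regions lay near another peak even though none overlapped. With the peaks of all animals pooled, the gap from the region's edge to the nearest H3K4me1, PolII_S5P or MBD3 peak had a median of 1670 bp, with 533 and 6288 bp at the 25th and 75th percentiles. Such a peak was within 1 kb of 4088 regions (38.6%), within 10 kb of 82.0% and within 50 kb of 96.0%. The nearest one was MBD3 for 5861 regions (55.3%), H3K4me1 for 4251 (40.1%) and PolII_S5P for 477 (4.50%). This order also follows the number of peaks per antibody, and its part in the order was not tested.

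Within the lists of single animals the median gap to MBD3 was 5077, 4108 and 8587 bp in animals 5, 7 and 9. It was 12414, 7997 and 23547 bp to H3K4me1 and 256004, 47217 and 71723 bp to PolII_S5P. PolII_S5P peaks were within 5 kb of 2.53%, 14.2% and 9.09% of H3K27ac-only regions. The median gap to TDG was 10584306, 4593155 and 764870 bp, against 10227263, 4168610 and 652035 bp for accompanied regions, so the distance to the few TDG peaks was of the same order in both. For animal 5 the TDG gap was measured on 9605 H3K27ac-only and 36665 accompanied regions, those on chromosomes with a TDG peak.

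In each animal the median gap to H3K4me1 was shorter for H3K27ac-only regions than for regions with MBD3 alone. The rule keeps H3K4me1 and PolII_S5P out of both classes, and since these same lists chose the regions, the gaps are described without a test. The median gaps of regions with MBD3 alone were 19582, 15450 and 45421 bp, so those of H3K27ac-only regions were 0.634, 0.518 and 0.518 times as long. The mean difference was -12165 ± 8409 bp (SD, n = 3). The gaps of the 2 classes overlapped between animals. H3K4me1 lay within 5 kb of 34.1%, 41.9% and 24.5% of H3K27ac-only regions and of 22.7%, 27.4% and 12.5% of regions with MBD3 alone.

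For PolII_S5P the medians of regions with MBD3 alone were 207327, 45534 and 66408 bp. H3K27ac-only regions were 1.23, 1.04 and 1.08 times as far away, a mean difference of 18558 ± 26147 bp (SD, n = 3), smaller than its spread between animals. With the peaks of all animals pooled the direction turned, with medians of 39324 bp for H3K27ac-only regions and 39970 bp for regions with MBD3 alone. A PolII_S5P peak within 5 kb was more frequent at H3K27ac-only regions, at the 2.53%, 14.2% and 9.09% given above, against 2.04%, 11.5% and 7.22% of regions with MBD3 alone. Within 1 kb it was less frequent, at 0.312%, 3.17% and 1.72%, against 0.486%, 3.51% and 1.99%. The direction thus differed with the distance used.

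**Figure D4:**
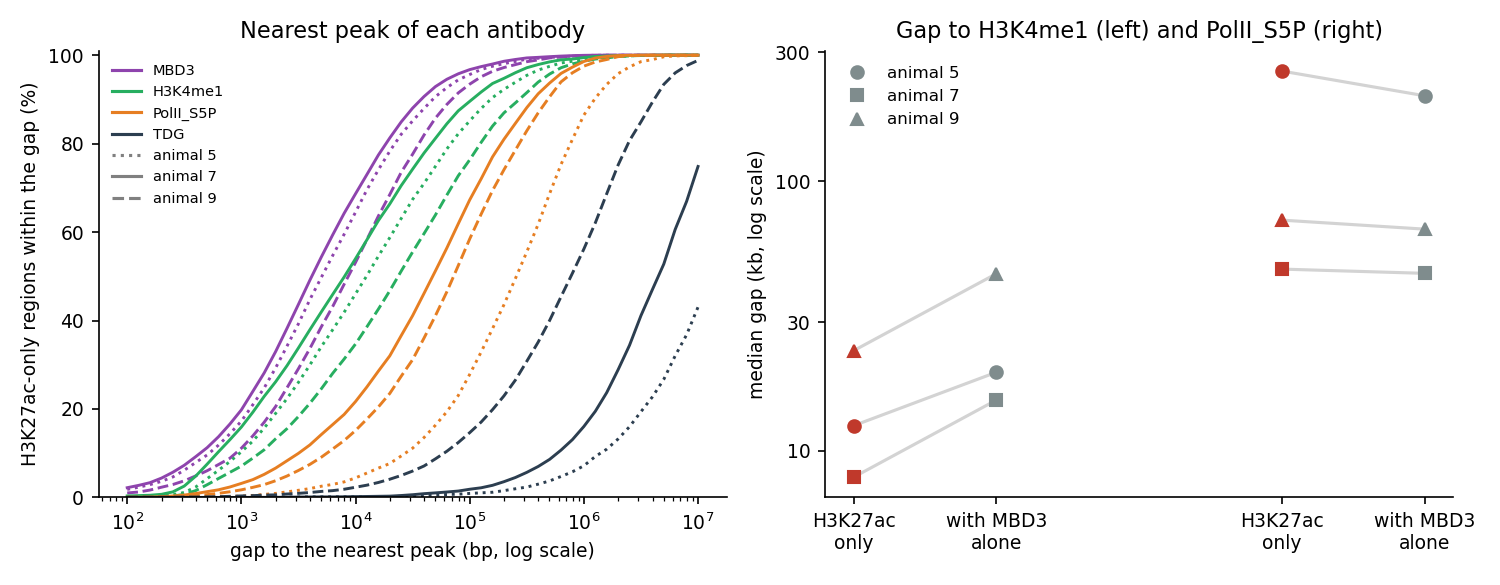
Left, percent of H3K27ac-only regions whose nearest peak of each antibody in each animal lies within the gap on the x axis (bp, log scale). MBD3 is nearest, then H3K4me1, PolII_S5P and TDG, within each animal. Right, median gap in kb (log scale) for H3K27ac-only regions and regions with MBD3 alone, joined by animal. The H3K4me1 gap is shorter in H3K27ac-only regions in all 3 animals, while the PolII_S5P gaps are 1.23, 1.04 and 1.08 times as long in animals 5, 7 and 9.

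Isolated H3K27ac-only regions were few and ranked higher in H3K27ac than those near other peaks. The 424 regions (4.00%) with no other peak within 50 kb had a median width of 536.5 bp, against 611 bp for the 4088 within 1 kb of another peak. Their median percentile of H3K27ac fold enrichment was 55.9, against 42.0 for those within 1 kb, and the median folds were 3.88, 3.97 and 4.09 against 3.45, 3.52 and 3.66 in animals 5, 7 and 9. They had peaks in all 3 libraries in 47.2% of cases, against 41.3%. This is a description, since the same lists chose the regions. The most isolated region was on chromosome 9, 17303987 to 17304266, 849919 bp from the nearest other peak, with H3K27ac folds of 3.78 and 3.49 in animals 7 and 9 and no peak in animal 5. Another 2 were on chromosome 7, at 104002155 to 104002613 and 86424292 to 86425162, with gaps of 827305 and 808161 bp. The last of these had peaks in all animals, with folds of 4.62, 3.03 and 6.03.

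H3K27ac-only regions were spread over all 19 autosomes. Their share among eligible regions ranged from 18.7% on chromosome 11 to 24.2% on chromosome 3, against 20.7% overall. Per Mb of the span between outermost peaks there were 3.63 on chromosome 14 and 5.34 on chromosome 9, with the other chromosomes in between. Chromosome 14 also had the lowest density of eligible regions, 17.5 per Mb, and chromosomes 11 and 9 the highest, 27.5 and 26.3 per Mb.

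H3K27ac-only regions were unevenly spread below the scale of chromosomes. They lay nearer to accompanied regions than to each other, but accompanied regions were more numerous, 40530 against 10589. The part of these numbers in the gaps was not tested. The nearest accompanied region was at a median of 3210 bp, against 4305 bp between accompanied regions. The median gap to the nearest other H3K27ac-only region was 12353 bp, against 40267 bp from an accompanied region to the nearest H3K27ac-only one. The nearest eligible region of any kind was at a median of 904 bp, against 2796 bp for accompanied regions. Of 2410 windows of 1 Mb, 506 held none, the median window held 3, and 35 held 20 or more. These 35 windows (1.45%) held 999 H3K27ac-only regions (9.43%). The share of all eligible regions in these windows was not measured. Regions in such windows had H3K27ac in all 3 libraries in 50.1% of cases and a median percentile of 47.9, against 42.6% and 41.8 in other windows.

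The densest window was at 7000001 to 8000000 on chromosome 2. It held 82 H3K27ac-only regions among 162 eligible regions (50.6%), 52 of them with peaks in all 3 libraries. Their median width was 675 bp and the median gap between neighbours 3398 bp, with median H3K27ac folds of 4.16, 4.28 and 4.31 in animals 5, 7 and 9. The other 80 eligible regions comprised 46 with PolII_S5P, 28 with H3K4me1 and no PolII_S5P, and 6 with MBD3 alone, and 6 regions of 5000 bp or more lay there too. The H3K27ac-only regions of this window stood among regions with polymerase. The lists of animals 5, 7 and 9 had 3, 61 and 27 PolII_S5P peaks there. The next windows were at 20000001 to 21000000 on chromosome 5, with 47 of 120 eligible regions, and 113000001 to 114000000 on chromosome 9, with 40 of 77, which holds one of the strongest regions and the widest. On chromosome 10, the window at 40000001 to 41000000 had 38 of 93. The one at 108000001 to 109000000 had 36 of 156 (23.1%), against 20.7% over all eligible regions.

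TDG, whose lists the rule did not use, was rare at acetylated regions of every class and rarer at H3K27ac-only regions than at accompanied ones. TDG peaks of animals 5, 7 and 9 lay at 0, 0 and 6 of the 10589 regions, or 0%, 0% and 0.0567%, against 75, 63 and 515 of 40530 accompanied regions, or 0.185%, 0.155% and 1.27%. Over all 51119 eligible regions the shares were 0.147%, 0.123% and 1.02%. Exact 95% binomial intervals reached up to 0.0348% for animals 5 and 7 and ran from 0.0208 to 0.123% for animal 9, and they cover counting error only. The 2 kinds of region did not overlap in any animal or between animals. The mean difference was -0.518 ± 0.603 percentage points (SD, n = 3, lower in 3 of 3 animals, two-sided exact permutation p = 0.1, the smallest possible, adjusted p = 0.25).

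The size of this difference rests mainly on animal 9, which had the longest TDG list. With all lists of animal 9 left out, H3K27ac-only regions averaged 0% and accompanied ones 0.185%, on 2 animals. Within 5 width classes H3K27ac-only regions averaged 0.0189% and accompanied ones 0.357% (difference -0.339 points, exact permutation p = 0.1). H3K27ac-only regions had the lower share in every one of the 15 combinations of animal and width class. These combinations share the same animals and are not independent. In animals 5 and 7 no H3K27ac-only region had TDG, so any accompanied region with TDG made their share the lower one. In the class of 848 to 1253 bp, for example, TDG lay at 0, 0 and 2 of 1950 H3K27ac-only regions and at 16, 13 and 91 of 8273 accompanied regions.

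Among accompanied regions the share with TDG differed by class and by animal. Regions with MBD3 alone had TDG in 0.286%, 0.267% and 0.952% of cases and regions with PolII_S5P in 0.367%, 0.275% and 1.80%. Those with H3K4me1 and no PolII_S5P had it in 0.0261%, 0.0261% and 1.14%, and in animals 5 and 7 their binomial intervals overlapped those of H3K27ac-only regions. Per Mb covered, H3K27ac-only regions held 0, 0 and 0.724 regions with TDG, and accompanied ones 1.27, 1.07 and 8.71.

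**Figure D5:**
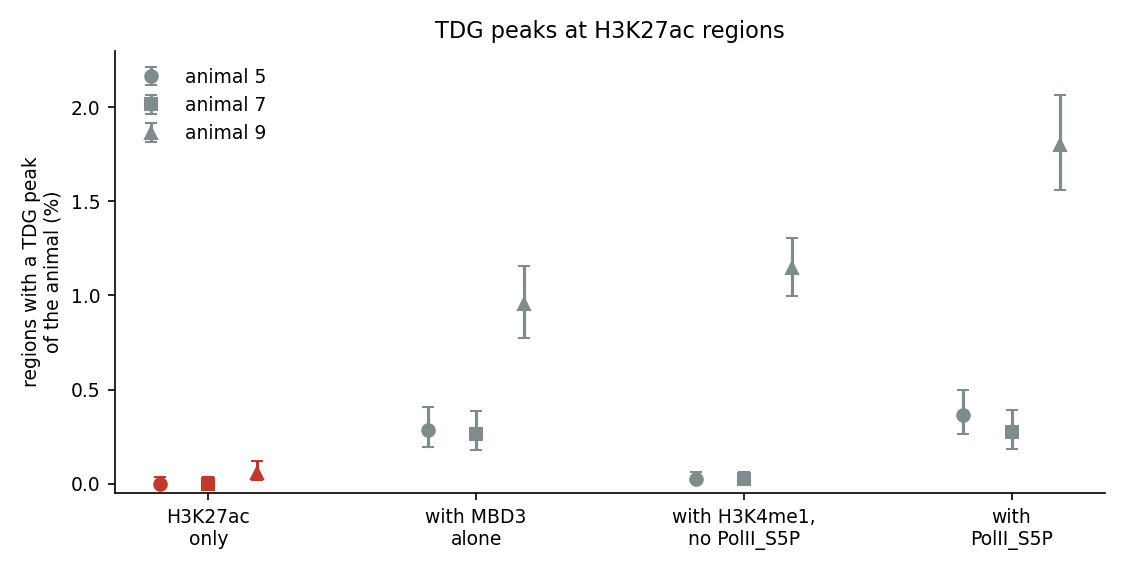
Percent of H3K27ac regions of each class with a TDG peak of the same animal. Symbols are animals 5, 7 and 9 and bars are exact 95% binomial intervals, which cover counting error only. H3K27ac-only regions are at 0%, 0% and 0.0567%, and regions with PolII_S5P at 0.367%, 0.275% and 1.80%.

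The 6 H3K27ac-only regions with TDG had TDG peaks of animal 9 alone. Their fold enrichments ranged from 3.51 to 5.11, with 5 of the 6 below the list's median of 4.47, and their −log10 q-values from 1.39 to 4.39. The strongest was at chromosome 1, 168513633 to 168514091, with a TDG fold of 5.11 and H3K27ac peaks in animals 5 and 7 but not in animal 9. The region on chromosome 14, 64355341 to 64357055, had a TDG fold of 4.29 and H3K27ac in all animals, with H3K4me1 at 1046 bp. On chromosome 2, 68915224 to 68916139, TDG had a fold of 4.15 and H3K4me1 lay 1489 bp away. A further 2 were on chromosome 19, at 37008093 to 37009189 and 28360298 to 28361091, with TDG folds of 4.09 and 3.83 and MBD3 peaks 376 and 342 bp away. Within 1 kb but outside the region, TDG peaks of animal 9 lay beside another 30 H3K27ac-only regions, and those of animals 5 and 7 beside 1 and 0.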

How the data were processed

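Peak lists of 15 ChIP-seq libraries were read, 1 per library. The submitters' processing notes list MACS2 2.2.7.1, with build mm39 (hg38 also appears). They further name Picard 2.18.29, Trim Galore 0.6.7, bcl2fastq 2.20 and SAMtools 1.16.1. The sources used here name neither the aligner nor the control. MBD3 and TDG lists write unplaced contigs differently from the other lists. The authors deposited for each peak a fold enrichment (a ratio to local background), a −log10 q-value and a summit offset in bp, a number of another kind. Depth is unknown.

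Regions, members and comparisons were chosen with earlier results of these data known. Coordinates count from 1. Overlap means at least 1 bp, and a gap runs between region and peak edges. A number in the labels marks 1 animal, whose libraries are therefore paired. Shares and median gaps per animal were compared by two-sided exact permutation over 3 animals against 3 (20 arrangements), for which p cannot fall below 0.1. Benjamini-Hochberg adjustment was over 5 tests. The permutation does not use the pairing, so variation between animals enters its p. The p-values of the gaps are not printed, since the lists that gave the gaps also chose the regions. Regions are not replicates. Named regions are the 5 strongest seen in all libraries, the 3 widest, the 3 most isolated, those with TDG in 2 animals (none) and the 5 strongest with TDG in 1, and the densest 1 Mb window. The windows that follow it were added after their values were seen. Simulated lists with known overlaps were used to test the code. Alternatives covered q-values, overlap, merging, list length, chromosomes, width, pairing and each animal left out. Code ran in Python 3.11.15 with scipy 1.17.1, pandas 2.3.3, numpy 2.4.6 and, for figures, matplotlib 3.10.9.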

Additional observations from a re-analysis of the deposited data

Results flagged for a closer look

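Chromosome X lies outside the rule and held 192 regions that met its other terms, of 789 eligible ones (24.3%, against 20.7% on chromosomes 1 to 19). H3K4me1 lay at 9.63% of the eligible regions of X, against 45.9% on chromosomes 1 to 19, while MBD3 was at 72.0% against 63.2% and PolII_S5P at 25.7% against 21.3%. The H3K27ac-only regions of X had a median width of 579 bp, against 636 bp. Chromosome Y held 0 such regions among 11 eligible ones, although the animals are labelled female. The H3K27ac lists of animals 5, 7 and 9 had 15, 14 and 13 peaks on Y, all between 90749224 and 90854114 (mm39), and their source was not tested.

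The median gaps to H3K4me1 and to PolII_S5P, H3K27ac-only regions over regions with MBD3 alone, went in opposite directions in every animal. The mean log2 ratio was -0.85 ± 0.17 for H3K4me1 and 0.16 ± 0.13 for PolII_S5P (SD, n = 3). The difference between them was not tested. With the peaks of all animals pooled, the PolII_S5P medians were 39324 bp for H3K27ac-only regions and 39970 bp for regions with MBD3 alone. A PolII_S5P peak within 5 kb was more frequent at H3K27ac-only regions in each animal, as H3K4me1 was. The PolII_S5P shares were 2.53%, 14.2% and 9.09%, against 2.04%, 11.5% and 7.22%. Within 1 kb PolII_S5P was less frequent at H3K27ac-only regions in each animal, at 0.312%, 3.17% and 1.72%, against 0.486%, 3.51% and 1.99%. H3K4me1 was still more frequent within 1 kb, at 10.3%, 15.9% and 7.08%, against 7.92%, 10.6% and 3.97%.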

How the results depend on the processing

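All 5 differences kept their sign under the alternatives run, except that the gap to PolII_S5P was -646 bp with the peaks of all 3 animals pooled; the cause was not tested. No p fell under 0.05, which 3 against 3 does not allow. With the replicate block (animals as pairs) the differences are the same by construction, -0.518, -16.5 and -64.7 percentage points and 18558 and -12165 bp, and the exact sign-flip p is 0.25 for the 3 shares, the smallest possible. The number of H3K27ac-only regions was 4714 with a −log10 q of at least 5 for H3K27ac, 4581 with all 3 H3K27ac libraries required, 6503 with no other peak within 1000 bp and 7006 with peaks merged within 500 bp, and between 8233 and 13722 under the other alternatives. Their median width was 853 bp with that q-value in the 12 lists other than TDG, 717 bp with it for H3K27ac only, 834 bp with all 3 libraries, 785.5 bp with merging and 698 bp with lists of equal length, where the gap to PolII_S5P differed by 50257 bp and that to H3K4me1 by -16712 bp. Without each animal in turn the number was 8233 to 8926 and the width 663 to 692 bp. The TDG difference was then -0.851 to -0.185 points, the smallest without animal 9, and that in other peaks -62.7 to -56.6. The H3K27ac difference was -28.0 to -24.5, with regions chosen from a single library. The gap differences were 4966 to 33867 bp for PolII_S5P and -12391 to -7580 bp for H3K4me1. The held-out shares have no value with all 3 libraries required, since the choice already uses every library left. Unknown depth limits the statement that a peak is absent.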

Other observations

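Single H3K27ac peaks inside H3K27ac-only regions had median widths of 480, 474 and 423 bp in animals 5, 7 and 9. The H3K27ac rank of H3K27ac-only regions did not go one way with distance from other peaks. The median of the mean percentile was 42.0 within 1 kb of another peak, 39.8 from 1 to 10 kb, 46.1 from 10 to 50 kb and 55.9 beyond 50 kb, over 4088, 4598, 1479 and 424 regions. At the other end of the range, 114 accompanied regions (0.281%) had peaks in all 9 lists of the other antibodies.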
